A study of Mus musculus with 6 samples.

Results

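Genes whose products make melanin or build, load and move melanosomes were followed in Melan-a cells after transfection of an siRNA against Dicer. The genes were Tyrp1, Slc24a5, Slc7a11, Hps3, Bloc1s6, Mlph and Mreg. They were taken by name, from probe sets whose platform annotation gives 1 gene symbol, and are 7 of 7486 genes with a probe set of their own in the table. Each had exactly 1 such probe set, none shared a row with another symbol, and all 7 lay above the gauge of background signal described below. Melan-a is an immortal line of pigmented melanocytes of the C57BL/6 mouse strain, labelled female. It was grown with serum and 200 nM TPA, a phorbol ester that activates protein kinase C and keeps such cells dividing. Wells seeded with 150000 cells received 50 pmol of siRNA against Dicer (siDicer) or of control siRNA (siScr), and RNA was taken 24 hours after transfection. There were 3 arrays per group, at passages 47, 54 and 56 in each, so siDicer and siScr can be set against each other within a passage. The series holds a single cell line, and Dicer1 was not analysed here, so the groups rest on the labels.

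Melanin is made inside melanosomes, organelles related to lysosomes. Tyrosinase and its relatives Tyrp1 and Dct carry out the synthesis, ion exchangers such as Slc24a5 set the conditions for it, and cystine brought in by Slc7a11 is needed for the red-yellow form, pheomelanin. The protein complexes BLOC-1 and BLOC-2 sort enzymes and transporters from endosomes to maturing melanosomes, and Mlph and Mreg act when filled melanosomes move along the cytoskeleton. Mouse coat colour mutants are known for most of these genes: brown for Tyrp1, subtle gray for Slc7a11, cocoa for Hps3, pallid for Bloc1s6, leaden for Mlph and dilute suppressor for Mreg.

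The promoters of these genes are shown because those of Tyrp1, Slc24a5, Slc7a11, Hps3 and Mlph hold CATGTG or CACGTG, letters of the E-box kind that the melanocyte factor MITF and its relatives are known to bind. RefSeq windows (GRCm38.p6), from 250 bases before to 50 after an annotated start, were found for 6 of the 7 genes. Searched on both strands were CATGTG and its longer form TCATGTG, the palindrome CACGTG, the antioxidant response letters TGACNNNGC and the amino acid response letters TGATGNAAN. Capitals mark every match in the stretches below, each written 5′ to 3′ on the strand of its gene.
Tyrp1, chr4:80834154-80834184, plus strand: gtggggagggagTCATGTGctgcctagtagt
Slc24a5, chr2:125068102-125068126, plus strand: aaggagactgctCACATGAttcagc
Slc7a11, chr3:50443641-50443700, minus strand: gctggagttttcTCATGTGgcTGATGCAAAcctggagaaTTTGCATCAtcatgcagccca
Hps3, chr3:20035311-20035337, minus strand: ggtcgcagcgctCACGTGatccggagc
Mlph, chr1:90915040-90915069, plus strand: tcaggagtagccCACGTGatctgagccgca

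TCATGTG thus lay 47 to 41 bases before the start of Tyrp1 and 75 to 69 bases before that of Slc7a11, and on the other strand 13 to 7 bases before that of Slc24a5. Each of these matches contains a CATGTG. Of 32851 promoter windows in the table, 3.77% held TCATGTG, 14.2% held CATGTG and 7.15% held CACGTG, the form found in Hps3 and Mlph. Slc7a11 also had TGATGNAAN on each strand, at 66 to 58 and at 48 to 40 bases before its start, letters held by 3.95% of windows. TGACNNNGC, held by 12.4% of windows, was in none of these windows. A match describes letters only, and binding was not measured.

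Mreg is the gene whose groups did not overlap, as described below. RefSeq gives it a pair of neighbouring starts, and neither window held any of the letters searched. The 250 bases before the upstream start were (chr1:72212315-72212564, minus strand):
Mreg: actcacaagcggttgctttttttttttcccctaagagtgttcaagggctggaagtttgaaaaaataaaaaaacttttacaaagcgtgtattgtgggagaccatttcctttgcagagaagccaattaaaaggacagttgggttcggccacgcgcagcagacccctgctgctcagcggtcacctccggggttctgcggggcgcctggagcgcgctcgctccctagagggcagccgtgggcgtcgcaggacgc

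Values are log2 signals as deposited, so a difference of 1 is a doubling. The signal of 426 olfactory and vomeronasal receptor genes served as the gauge of background, with a 95th percentile of 4.22. Array medians lay between 4.58 and 4.64, and RNA integrity numbers were 10 for passages 47 and 56 and 9.7 and 9.8 for the siDicer and siScr arrays of passage 54. Of 15 genes fixed to check the cell type as melanocyte, the table held 3, Tyrp1, Slc24a5 and the transcription factor Pax3, each above the gauge in both groups. Lef1, from a further list of melanocyte genes, was also above it and is described with the other markers. Levels of different genes are not compared, since each probe set has its own response. In RNA from whole cultures, fewer cells of a type and less RNA per cell cannot be told apart. Nothing in the labels beyond passage number says how separate the cultures were, so p-values concern the spread among these samples only. In the fit that pairs arrays by passage, described below, that is mainly the spread of the differences within passages. The test moderates the variance of each gene with that of all probe sets. Standard errors, intervals and p-values therefore do not measure the spread of 1 gene alone.

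One of the 7 genes rose in siDicer cells and the other 6 did not pass the test. Mreg was 1.54-fold higher (95% confidence interval 1.33 to 1.78), while Tyrp1, Slc24a5 and Bloc1s6 differed by 0.02 to 0.09 log2 units upward and Slc7a11, Hps3 and Mlph by 0.12 to 0.14 downward. The test was limma with replicate number as a block, which compares arrays of the same passage, with Benjamini-Hochberg adjustment over all 16383 probe sets and a threshold of 0.05. With it 1 of 7 members was higher, beside 0.757% of all probe sets, and 0 of 7 lower, beside 0.238% (limma; 1 member at an unadjusted p under 0.05). Without the block none of the 7 passed (limma; 1 member at an unadjusted p under 0.05), beside 0.146% of probe sets higher and 0.0671% lower. Over all 16383 probe sets, 2568 were at an unadjusted p under 0.05 in limma with the block and 1667 without it. After another scaling, quantile normalization, 64.3% of called probe sets were higher in siDicer, against 76.1% with the values as deposited. After median centring the share was 78.5%.

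**Figure D1:**
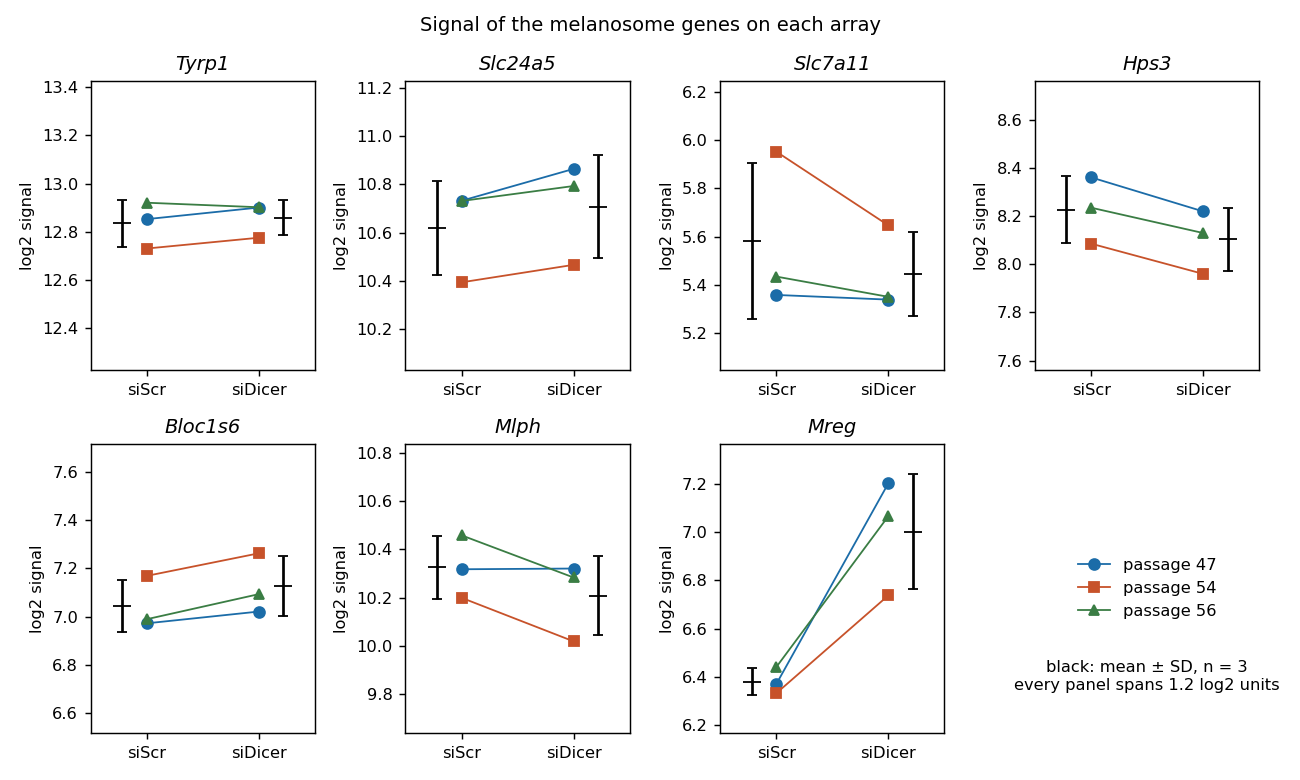
Log2 signal of each of the 7 genes on each array, siScr at the left and siDicer at the right of each panel, with lines joining arrays of the same passage and black bars for the mean ± SD (n = 3). Every panel spans the same number of log2 units. In Mreg all siDicer arrays lie above all siScr arrays, and in Tyrp1, Slc24a5, Slc7a11, Hps3, Bloc1s6 and Mlph the groups overlap, with passage 54 at one edge of each group.

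Mreg encodes melanoregulin, a small membrane-associated protein of melanosomes known for its part in their positioning and for modifying coat colour in myosin Va mutants. The siDicer arrays read 7.20, 6.74 and 7.07 at passages 47, 54 and 56, and the siScr arrays 6.37, 6.33 and 6.44. The lowest siDicer array was above the highest siScr array, which held for 1 of 7 members and for 7.57% of all probe sets. No member had its groups apart in the other direction, which 8.29% of probe sets did. Means were 7.002 ± 0.24 in siDicer and 6.381 ± 0.06 in siScr (SD, n = 3 each). Within pairs the difference was 0.83 at passage 47, 0.41 at passage 54 and 0.63 at passage 56. The mean difference was 0.62 with a standard error of 0.09 (limma with the block, adjusted p = 0.0435). By absolute size it ranked 17 among 7486 named genes, and by p 112 among 16383 probe sets.

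The spread of Mreg lay mostly in the siDicer arrays, whose range was 0.47 log2 units against 0.11 in siScr. Without the block the standard error was 0.11 and the adjusted p 0.0877 (limma), so the call depends on pairing the arrays by passage. The unadjusted p of Mreg was 0.000298 with the block and 0.000439 without it (limma), while 163 and 35 of all probe sets passed. As the adjustment runs over all probe sets, the effect of pairing on other genes also enters the call. Without the passage 54 pair the difference was 0.73 (limma, adjusted p = 0.149), and without the passage 56 pair 0.62 (adjusted p = 0.152). Without the passage 47 pair it was 0.52 and passed (adjusted p = 0.0447), and after quantile normalization it was 0.59 and did not (adjusted p = 0.0682). Mreg was higher in siDicer in every one of the fits shown in the plot of settings. As its groups did not overlap, leaving out arrays could not change that direction.

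**Figure D2:**
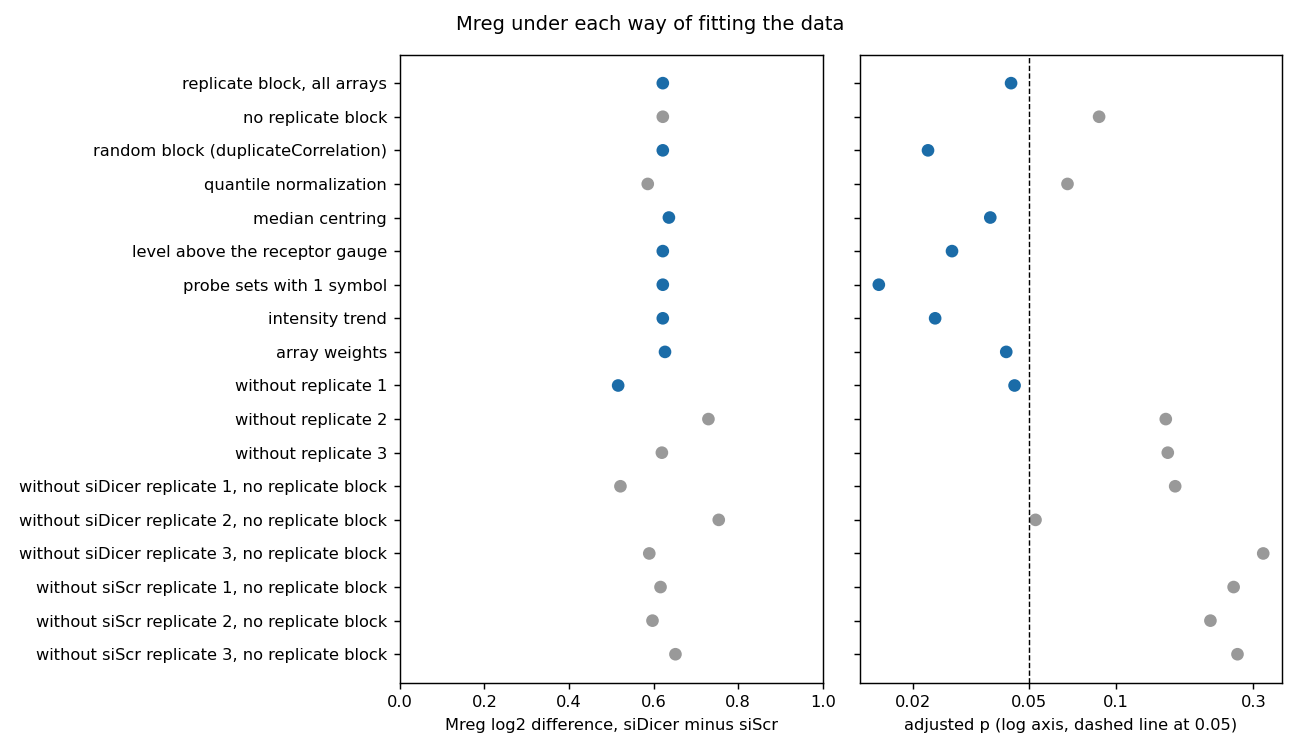
Log2 difference of Mreg, siDicer minus siScr (left), and its adjusted p on a log axis (right), for the fit with the replicate block and each alternative. Differences run from 0.52 to 0.75, all above 0, while adjusted p-values run from 0.0152 to 0.324 across the dashed line at 0.05, with settings past the threshold in blue. The groups do not overlap, so the direction was fixed in the fits that leave arrays out.

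Mlph, melanophilin, is the adaptor that ties Rab27a on the melanosome to the motor myosin Va. Its signal in siDicer was 10.32, 10.02 and 10.28 at passages 47, 54 and 56, against 10.32, 10.20 and 10.46 in siScr. The groups overlapped, with the siDicer array of passage 54 the lowest of all. The difference was close to 0 at passage 47 and -0.18 at each of the other passages. On average it was -0.12 (95% interval -0.27 to 0.03; limma with the block, adjusted p = 0.419).

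Tyrp1, tyrosinase-related protein 1, is a melanosomal membrane enzyme that acts late in the synthesis of black-brown eumelanin. It read 12.90, 12.78 and 12.90 in siDicer and 12.85, 12.73 and 12.92 in siScr, in the same order of passages. The groups overlapped almost entirely, and siDicer was higher in 2 of 3 pairs. The difference of 0.02 had a 95% interval of -0.11 to 0.16 (limma with the block, adjusted p = 0.853).

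Slc24a5 is the sodium, potassium and calcium exchanger of pigment cells, needed for normal melanin content. Its siDicer arrays were at 10.86, 10.47 and 10.79 and its siScr arrays at 10.73, 10.39 and 10.73. It was higher in siDicer in all 3 pairs, by 0.13, 0.07 and 0.06, while the groups overlapped because passage 54 was low in both. The mean difference was 0.09 (95% interval -0.04 to 0.22; limma with the block, adjusted p = 0.475).

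Slc7a11 is the transport subunit of the cystine and glutamate exchanger. It was at 5.34, 5.65 and 5.35 in siDicer and at 5.36, 5.95 and 5.43 in siScr. It was lower in siDicer in all 3 pairs, with differences of -0.02, -0.31 and -0.08, so that of passage 54 stood well apart. The mean difference was -0.14 (95% interval -0.31 to 0.04; limma with the block, adjusted p = 0.414), the widest interval among the 6 genes that did not pass.

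Hps3 is a subunit of BLOC-2, which acts after BLOC-1 in delivery to melanosomes. Its siDicer arrays read 8.22, 7.96 and 8.13 and its siScr arrays 8.36, 8.09 and 8.23. Differences within pairs were close to each other, at -0.14, -0.13 and -0.11. They were smaller than the full range over passages, which was 0.26 in siDicer and 0.27 in siScr. The mean difference was -0.12 with a 95% interval of -0.25 to 0.0042 (limma with the block, adjusted p = 0.331).

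Bloc1s6, pallidin, is a subunit of BLOC-1. It was at 7.02, 7.26 and 7.09 in siDicer and at 6.97, 7.17 and 6.99 in siScr. It was higher in siDicer in all 3 pairs, by 0.05, 0.09 and 0.10, and the groups overlapped. The mean difference was 0.08 (95% interval -0.05 to 0.21; limma with the block, adjusted p = 0.500).

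Read together, 3 of 7 members were higher in siDicer in all 3 pairs, which 17.9% of all probe sets were, and 2 of 7 lower in all 3, which 22.6% were. The median difference of the 7 was 0.02, and that of all probe sets -0.01. For the 6 genes that did not pass, the intervals with the block reached at most 1.24-fold down, in Slc7a11, and 1.16-fold up, in Slc24a5. Intervals without the block were wider, reaching -0.49 log2 units in Slc7a11 and 0.38 in Slc24a5. These bounds do not show that the genes were unaffected.

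**Figure D3:**
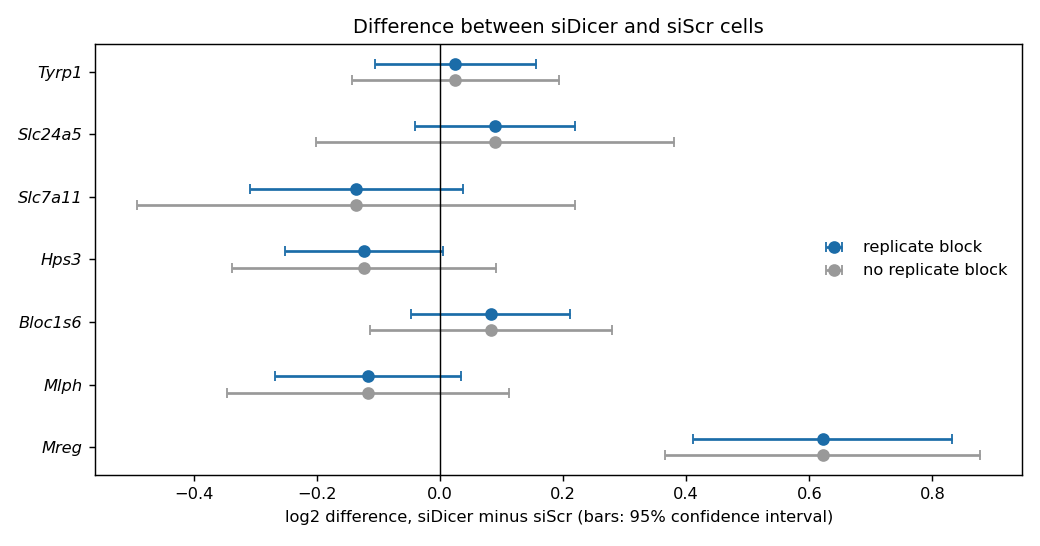
Log2 difference, siDicer minus siScr, of each gene with its 95% confidence interval from limma, with the replicate block (blue) and without it (grey). Both intervals of Mreg lie above 0, from 0.41 to 0.83 with the block, and those of Tyrp1, Slc24a5, Slc7a11, Hps3, Bloc1s6 and Mlph include 0.

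The other melanosome genes measured differed by -0.01 to 0.10 and none passed (limma, adjusted p from 0.434 to 0.98 with the block). They come from 6 lists, for enzymes, matrix proteins, transporters, BLOC complexes, cargo sorting and movement, which name 83 genes in all. The table held 14 of them, the 7 above and 7 more, and none of the matrix and membrane proteins. With the block 1 of 14 rose, Mreg, and 0 fell, beside 0.757% and 0.238% of all probe sets. Without it 0 passed (limma; 1 at an unadjusted p under 0.05), beside 0.146% higher and 0.0671% lower. The median difference of the 14 was 0.04, against -0.01 for all probe sets. Vps39, a subunit of the HOPS tethering complex of late endosomes, differed by 0.10 (limma with the block, adjusted p = 0.434) and its HOPS partners Vps16 and Vps18 by -0.01 and 0.01. Stx12, an endosomal SNARE protein, differed by 0.06 (adjusted p = 0.672) and Snapin, another BLOC-1 subunit, by -0.0049. Mcoln3, a cation channel of endosomes and lysosomes, and Rab17, a small GTPase reported in melanosome release, differed by 0.06 and 0.05.

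Slc7a11 was also read beside a list for cystine and glutathione supply. Of its 20 genes 8 were measured and 0 passed (limma with the block), beside 0.757% of all probe sets higher and 0.238% lower. At an unadjusted p under 0.05 in that fit were 4 of the 8, beside 2568 of all 16383 probe sets. Slc7a11 was 1 of 6 that were lower in siDicer in all 3 pairs, which 22.6% of all probe sets were, and the list median was -0.19. Cth, the enzyme that makes cysteine from cystathionine, had a difference of -0.33 (adjusted p = 0.116), from 5.73 ± 0.21 in siScr to 5.40 ± 0.16 in siDicer (SD, n = 3 each). Chac1, which breaks down glutathione, differed by -0.28 (adjusted p = 0.155), and Sesn2 and Trib3, which respond to amino acid shortage and stress, by -0.29 and -0.23. In Chac1, Sesn2 and Trib3 the pair of passage 54 had the largest difference. Without the block their adjusted p-values were 0.512, 0.460 and 0.665 (limma). Nfe2l2, the factor of the antioxidant response, and its target Srxn1 were each 0.08 higher (adjusted p = 0.591 and 0.562).

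In each of Tyrp1, Slc24a5, Slc7a11, Hps3, Bloc1s6 and Mlph the range over passages within either group was larger than the mean difference between siDicer and siScr. In siScr it was 0.59 log2 units for Slc7a11, 0.34 for Slc24a5 and 0.19 for Tyrp1. In both groups the array of passage 54 was the lowest of its group for Tyrp1, Slc24a5, Hps3, Mlph and Mreg, and the highest for Slc7a11 and Bloc1s6. Over all probe sets, 12.7% were lowest and 15.1% highest at passage 54 in both groups. Each passage is 1 pair of arrays, so these are values without a test, and passage cannot be told apart from the day or RNA batch it may stand for. The passage 54 arrays also had the lower RNA integrity numbers given above, and the part of these in the values was not tested.

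The size of the shift differed from gene to gene. Set against the mean of passages 47 and 56, passage 54 stood at -0.36 log2 units for Slc24a5 in siDicer and at -0.34 in siScr. For Tyrp1 the values were -0.13 and -0.16, for Hps3 -0.21 in both groups, and for Mlph -0.28 and -0.19. Slc24a5, Tyrp1, Hps3 and Mlph were thus lower at passage 54 with either siRNA. Mreg stood at -0.40 in siDicer and -0.07 in siScr, so nearly all of its passage difference was in the siDicer arrays. Bloc1s6 was higher at passage 54, by 0.21 and 0.19.

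Slc7a11 was 0.30 higher at passage 54 in siDicer and 0.56 higher in siScr. In the cystine and glutathione list 5 of 8 genes were highest at passage 54 in both groups, beside 15.1% of all probe sets. These were Slc7a11, Chac1, Cth, Sesn2 and Trib3. Trib3 was 0.21 and 0.57 higher there in siDicer and siScr, Chac1 0.23 and 0.45, Cth 0.17 and 0.36, and Sesn2 0.14 and 0.40. For each of the 5 the shift was larger in siScr, a difference that was not tested. Among the 14 melanosome genes 8 were lowest at passage 54 in both groups, beside 12.7% of all probe sets. Of the 8, Mcoln3 had values of -0.71 and -0.63. Stx12 and Vps39 were the others outside the 7 members.

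**Figure D4:**
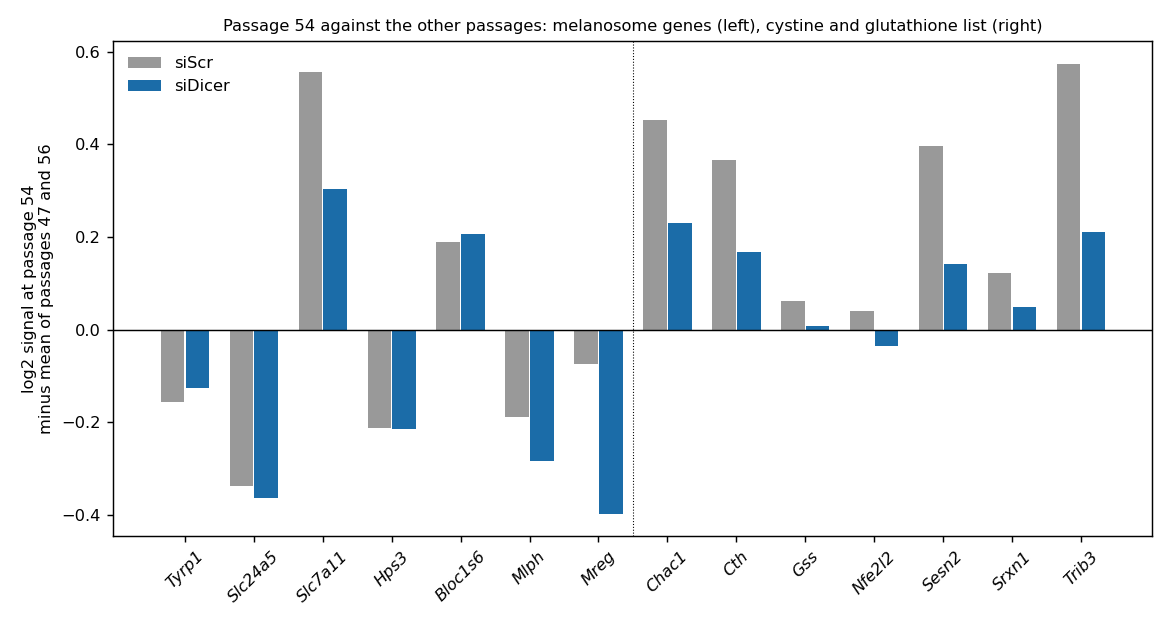
Log2 signal at passage 54 minus the mean of passages 47 and 56, in siScr (grey) and siDicer (blue), for the 7 melanosome genes (left of the dotted line) and the other genes of the cystine and glutathione list (right). Bars of Tyrp1, Slc24a5, Hps3, Mlph and Mreg point down in both groups. Those of Slc7a11, Bloc1s6, Chac1, Cth, Sesn2 and Trib3 point up in both, as do the smaller ones of Srxn1 and Gss. Each bar sets a single array against the mean of the other passages of its group and carries no error.

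Markers of other cells were read in the same fit. Over all 16383 probe sets it called 0.757% higher and 0.238% lower, with 2568 at an unadjusted p under 0.05 (limma with the block). Of 6 fibroblast markers measured, S100a4, a calcium-binding protein not restricted to fibroblasts, rose by 0.38 (limma with the block, adjusted p = 0.043; without it, 0.599). The other 5 did not pass, and 3 of the 6 were at an unadjusted p under 0.05 in limma with the block. Beside S100a4 these were Postn, a matrix protein, and Col5a1, a collagen chain. They differed by 0.25 and 0.19 (limma with the block, adjusted p = 0.125 and 0.186), both higher in siDicer in all 3 pairs. Of the remaining 3, Prrx1, below the gauge, differed by -0.11 and Col5a2 by -0.06. Col3a1 hardly differed, at -0.0015, and was higher in siDicer in 2 of 3 pairs. The mean of the list ran from 5.97 to 6.20 in siDicer arrays and from 5.86 to 6.07 in siScr. Of 5 keratinocyte markers 0 passed (limma; 0 at an unadjusted p under 0.05), with means of 4.67 to 4.75 and 4.66 to 4.83. Sprr1b and Lor, the pair of smallest p, differed by 0.17 and -0.08, the former below the gauge. Of 8 immune markers 0 passed (limma with the block; 3 at an unadjusted p under 0.05). Their mean was 4.25 to 4.34 in siDicer and 4.40 to 4.43 in siScr, and the defining leukocyte gene Ptprc was below the gauge, at 2.84 and 2.85. Fcer1g and C1qa, the immune markers of smallest p, differed by -0.25 and -0.29.

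Among 3 Schwann and glial markers Cdh19, a cadherin, rose by 0.55 and Pmp2, a myelin lipid-binding protein, fell by 0.95 (limma with the block, adjusted p = 0.0304 and 0.0209). The other, Sox2, differed by -0.21, lower in siDicer in all 3 pairs, and did not pass (adjusted p = 0.221). The mean of these markers, which moved in both directions, was 6.80 to 7.08 in siDicer and 6.98 to 7.32 in siScr. Of the further list of melanocyte genes, 2 were measured: Lef1, a transcription factor of Wnt signalling, rose by 0.52 (adjusted p = 0.0337), and Pax3 differed by 0.0050. None of S100a4, Cdh19, Pmp2 and Lef1 passed without the block. The part of these genes in the rise of Mreg was not tested.

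Genes whose signal followed a member most closely over the 6 arrays were listed as a description. The arrays share passages, and the highest of 5117 correlations over so few arrays is large for any gene. For Mreg they were Zc3h6, Celsr2 and Ergic3, with Pearson r of 0.99 each. For Tyrp1 they were 5031425F14Rik, Arhgef11 and Cyp2j6, with r from 0.98 to 0.99, and for Slc24a5 Gyg, Gm13479 and Zmat3, with r from 0.98 to 0.99. Slc7a11 was followed by Fastkd1, Mrgbp and Ndufb6, with r of 0.99 each, and Bloc1s6 by LOC100041034, Il18rap and Pla2g4a, with r from 0.994 to 0.997. Hps3 was nearest to Gm14490, Stra6l and Ddx59, and Mlph to Pla2g2e, Nceh1 and Mir296, with r from 0.98 to 0.99.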

How the data were processed

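Total RNA of 6 Melan-a cultures was labelled with the WT PLUS kit and hybridised to mouse Clariom D arrays, per the labels' protocols. The authors deposited log2 signals per probe set, and their processing notes name Affymetrix Expression Console. For its version, the background correction, the normalization and the genome build, nothing is given in the sources used here. If arrays were scaled to each other, a shift of most transcripts would not be seen, and background shrinks differences between dim probe sets.

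Of 16383 probe sets 7530 carried 1 symbol, 455 several and 8398 none. Symbols were updated through Entrez numbers (230 changed), and RefSeq places 7439 of the named ones on chromosomes 1 to 4, so most pigmentation genes are not analysed here. For each gene the row of highest mean was used.

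The siDicer minus siScr difference was fitted to the values as deposited by limma 3.58.1 (lmFit, eBayes; R 4.3.3), with replicate number as a block. The procedure was tested on simulated data. Replicate numbers go with passage in the labels, and deviations from group means correlated between same-numbered arrays with r of 0.44, 0.41 and 0.24, so the numbers were taken as pairing the arrays. The members, gene lists and promoter letters were chosen with earlier results of these data known. All 7 members are named. In each list every gene past the threshold is named, otherwise the 2 of smallest p. For each member the 3 genes most like it are given, and further list genes were named after their values were seen. The number of arrays limits the precision.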

Additional observations from a re-analysis of the deposited data

How the results depend on the processing

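In all 17 alternative fits Mreg was higher in siDicer, by 0.52 to 0.75 log2 units, and it passed in 7 of them (limma, adjusted p from 0.0152 to 0.324 over all). That direction was fixed where arrays were left out, as the groups of Mreg did not overlap. Several other fits change only the error, so the difference stayed at 0.62. With no replicate block 0 members, 35 probe sets and 0 genes of the fixed lists passed, against 1, 163 and 5 with it. Quantile normalization gave 0 members, 84 probe sets and 3 list genes (limma; 3 members at an unadjusted p under 0.05, beside 2529 of all probe sets). Probe sets past the threshold numbered 291 with those above the background gauge, 281 with 1 symbol, 302 with an intensity trend and 378 at a threshold of 0.1. Leaving out a pair, or a single array without the block, gave 0 to 1 members, 0 to 157 probe sets and 0 to 4 list genes. Those fits use fewer arrays, and without replicate 2 or 3 no probe set passed (limma; 2171 and 1814 at an unadjusted p under 0.05). Without siScr replicate 2 and the block, Tyrp1, Slc24a5 and Slc7a11 turned to -0.0273, -0.0236 and 0.0491, and 20 probe sets passed. None of Tyrp1, Slc24a5, Slc7a11, Hps3, Bloc1s6 and Mlph passed in any of the 17. A second probe set of a member gave no value, as each gene had 1. The cause of the other changes was not tested.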
